A study of Mus musculus with 6 samples.

Results

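MHC class I molecules display short peptides from the cell's own proteins on its surface, where cytotoxic T cells inspect them and inhibitory receptors of natural killer (NK) cells sense their presence. Peptides are cut by the proteasome, whose catalytic subunits can be exchanged for the immunoproteasome subunits Psmb8, Psmb9 and Psmb10. The TAP transporter, made of Tap1 and Tap2, then carries the peptides into the endoplasmic reticulum, where tapasin (Tapbp) helps to load them onto a heavy chain (H2-K1 or H2-D1) paired with B2m. Nlrc5 is a transcriptional activator of several of these genes, and interferon gamma is the classic inducer of the pathway. The mRNA levels of these 10 genes, taken by gene name from the 34745 genes of the count tables, were compared here.

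The cells were the murine lung cancer line 889 (889-DTC), given in the labels as C57BL/6 in strain. The 3 sg-con libraries came from cells with a lentiviral CRISPR control plasmid whose guide targets EGFP, labelled control. The 3 sg-kiaa1522 libraries came from cells with a guide against kiaa1522 in lentiCRISPRv2, a vector that delivers Cas9 with the guide, and are labelled KIAA1522-downregulated. The 2 plasmids are named separately in the study's methods, so the vector may differ between the groups as well as the guide. For other assays of 889 cells, the study's legends name Cas9 in the control cells as well as in those with a kiaa1522 guide. No further agent, time point or host animal is named for these samples, and transduced cells were enriched by puromycin or sorting. Which kiaa1522 guide was sequenced, and whether the libraries of a group came from separate cultures, is not given in the sources used here. The p-values therefore measure the spread between these libraries only, which may be technical.

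The question was which class I genes differed between the 2 groups. The mRNA of the targeted gene (C77080 in the tables) was higher, not lower, in the libraries labelled sg-kiaa1522, with 2554, 3726 and 3667 counts against 2214, 2404 and 2064 (log2 fold change 0.73). Its adjusted p was 9.10e-05 in edgeR's quasi-likelihood test, with adjustment by Benjamini and Hochberg over all genes tested. The mRNA level thus runs against the label, and every direction below rests on the labels. Gene-level counts do not show whether the coding sequence was edited. The libraries held 12220001 to 18609376 counts. The keratins Krt8, Krt18 and Krt19 and the lung factor Nkx2-1 were present, but the epithelial marker Epcam had 0 counts in every library. Of 12 leukocyte markers, Cd3e, Cd4, Cd8a, Adgre1 and Ncr1 were at 0 in every library, and the summed level of all 12 was 1.13 to 5.22 CPM (counts scaled to library size by TMM) in the libraries labelled sg-con and 1.15 to 1.296 in those labelled sg-kiaa1522.

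The library sg-con replicate 1 stood apart from the other controls. Its chi-square per degree of freedom over all genes tested was 23.4 against replicate 2 and 30.7 against replicate 3, whereas every other pair within a group was at 12.3 to 12.8. It also had the highest leukocyte sum (5.22 CPM, against 1.13 and 3.00 in replicates 2 and 3) and 79 counts of the class II chaperone Cd74, against 34 and 37. Without it, 4 of the 7 class I genes tested were lower and 0 higher, beside 29.4% and 29.6% of all genes tested. H2-D1 was then at -0.51, H2-K1 at -0.48, Tapbp at -0.40 and Tap2 at -0.42 on the log2 scale, each past the test, and Tap1 at -0.50 was not (adjusted p = 0.0672 by edgeR). Psmb8 was at 2.80 (adjusted p = 0.000111 by edgeR), and Psmb9 passed, at -1.06 (adjusted p = 0.0486 by edgeR). B2m (-0.04) and Psmb10 (0.10) did not pass.

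In brief, both heavy chain genes, both TAP subunits and tapasin were lower in the libraries labelled sg-kiaa1522, by 20.2% to 31.8%. B2m and Psmb10 did not pass the test. Psmb8, scarce in both groups, was 6.10-fold higher. Among class I-like genes outside the 10, H2-T23 and H2-T22 were also lower, and genes of the pathway's chaperones, proteasome partners and regulators were called in both directions.

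Of the 10 genes, 7 had more than 500 counts summed over the 6 libraries, the filter named in the study's methods, and were tested. H2-K1, H2-D1, Tap1, Tap2 and Tapbp, 5 of these 7, were lower at an adjusted p of at most 0.05. For comparison, 26.3% of the 10046 genes tested were lower by this rule and 26.3% were higher. None of the 7 was higher by edgeR or DESeq2, and 0 were higher at an unadjusted p under 0.05. The same 5 genes had groups that did not overlap in CPM, lower in every library labelled sg-kiaa1522, as did 31.1% of all genes tested. B2m and Psmb10 had overlapping groups, and none of the 7 was without overlap in the other direction, as 30.6% of all genes were. None of the 7 passed a log2 fold change of 1 in size, which 4.34% of all genes tested did in the lower and 2.74% in the higher direction. The median log2 fold change was -0.35 over the 7 genes and -0.0067 over all genes tested. Psmb8, Psmb9 and Nlrc5 fell under the count filter. The fold changes of Psmb8 and Psmb9 below come from the same test over every gene with at least 1 count, where 16.8% of 18499 genes were lower and 16.7% higher.

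**Figure D1:**
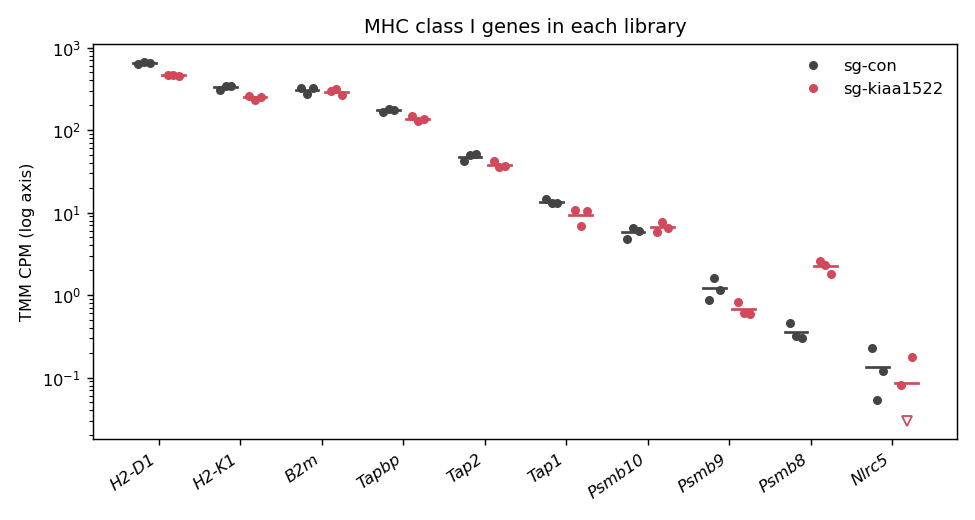
CPM on a log axis for each of the 10 genes in each library. Points are libraries, horizontal bars are group means and the open triangle marks a library with 0 counts. H2-D1, H2-K1, Tapbp, Tap2 and Tap1 lie lower in all 3 libraries labelled sg-kiaa1522, and Psmb8 lies higher.

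The upstream sequences of the heavy chain genes and B2m are shown first, because these genes encode the 2 chains of the displayed molecule and their promoters are the textbook case of shared control by NF-κB, interferon and the Nlrc5-bound SXY module. Upstream windows of 250 bases were available for 8 of the 10 genes (RefSeq, GRCm38.p6), and not for Tap2 and Nlrc5. Each window is given 5′ to 3′ on the gene's strand and ends at the base before the annotated start. Capitals mark matches, on either strand, to 4 motifs: GAAANNGAAA (ISRE-like, read by interferon regulatory factors), GGGNNTTNCC (κB-like, read by NF-κB), TGACG (X2-like) and CCAAT (Y box). The H2-K1 window is chr17:34000348-34000597 on the minus strand, the H2-D1 window chr17:35262844-35263093 on the plus strand, and the B2m window chr2:122147437-122147686 on the plus strand.
H2-K1: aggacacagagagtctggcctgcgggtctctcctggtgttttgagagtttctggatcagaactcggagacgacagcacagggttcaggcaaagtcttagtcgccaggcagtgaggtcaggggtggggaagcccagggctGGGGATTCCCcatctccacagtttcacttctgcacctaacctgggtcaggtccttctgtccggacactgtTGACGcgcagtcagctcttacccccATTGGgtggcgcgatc
H2-D1: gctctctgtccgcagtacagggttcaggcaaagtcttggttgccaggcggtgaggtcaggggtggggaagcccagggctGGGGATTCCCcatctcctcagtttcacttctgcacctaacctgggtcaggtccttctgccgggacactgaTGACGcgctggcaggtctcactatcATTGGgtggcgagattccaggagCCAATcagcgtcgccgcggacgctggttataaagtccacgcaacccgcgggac
B2m: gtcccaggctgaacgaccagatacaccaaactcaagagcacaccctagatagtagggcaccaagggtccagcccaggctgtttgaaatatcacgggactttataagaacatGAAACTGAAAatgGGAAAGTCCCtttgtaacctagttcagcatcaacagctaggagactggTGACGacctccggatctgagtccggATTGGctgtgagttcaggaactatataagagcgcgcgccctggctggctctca

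H2-K1 and H2-D1 both carried the κB-like match GGGGATTCCC, 111 to 102 bases upstream in H2-K1 and 171 to 162 bases upstream in H2-D1. In both, the X2-like match began 70 bases after the κB-like match and the Y box 25 bases after that. B2m carried all 4 motifs, and its X2-like match and Y box were also 25 bases apart. By the exact letters searched, it was the only one of the 8 genes with an ISRE-like match, GAAACTGAAA, 139 to 130 bases upstream. Elements that depart from these letters were not searched, so a gene without a match may still hold one. Over all 32851 promoter windows of this length, 2.98% held an ISRE-like match, 4.11% a κB-like match, 17.8% an X2-like match and 33.8% a Y box. Tap1 and Psmb9, whose windows overlap, had the same X2-like and Y box matches on opposite strands, Tapbp had Y boxes only, and the Psmb8 and Psmb10 windows had none of the 4. No match to one motif overlapped a match to another. Such a match is a description of letters in a window, not of a bound site.

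**Figure D2:**
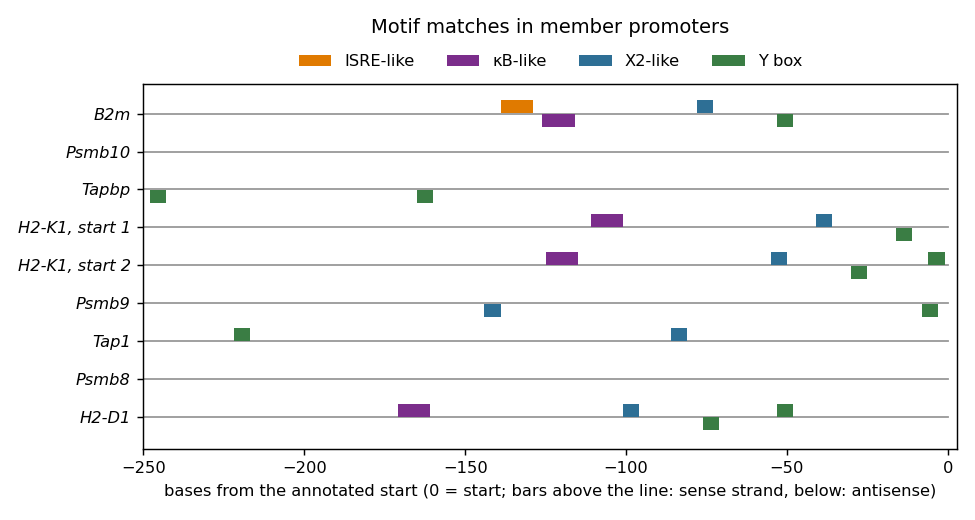
Exact motif matches in the upstream windows of 8 of the 10 genes, by distance in bases from the annotated start, which is at 0. Bars above a line are matches on the gene's strand and bars below are on the other strand; H2-K1 has 2 annotated starts. H2-K1 and H2-D1 share the order κB-like, X2-like, Y box, and Psmb8 and Psmb10 have no match.

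The heavy chains, which bind the peptide, were lower. H2-D1 (ENSMUSG00000073411, chr17:35262730-35267499, GRCm38) had 625, 669 and 641 CPM in the libraries labelled sg-con and 471, 462 and 457 in those labelled sg-kiaa1522. Every control library was above every library labelled sg-kiaa1522. The group means were 645 ± 22.5 and 463 ± 7.09 CPM (SD, n = 3). The log2 fold change was -0.48 (SE 0.0537, 95% interval -0.60 to -0.35, adjusted p = 0.000359 by edgeR).

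H2-K1 (ENSMUSG00000061232, chr17:33996017-34000347), the other classical heavy chain gene, showed the same pattern. It had 309.5, 341 and 347 CPM in the libraries labelled sg-con and 259, 234 and 253 in those labelled sg-kiaa1522. The lowest control library was above the highest library labelled sg-kiaa1522. This was a log2 fold change of -0.42 (SE 0.0702, 95% interval -0.58 to -0.26, adjusted p = 0.00206 by edgeR), a mean 25.2% lower. Heavy chain genes are close relatives, and 9.63% of the 50-base windows of H2-K1 transcripts and 12.8% of those of H2-D1 also occurred in transcripts of other genes. Reads were counted only where they mapped uniquely, so part of each gene may not have been counted. How much was lost was not tested, and the share of each gene remains uncertain.

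B2m (ENSMUSG00000060802, chr2:122147686-122153083), the invariant light chain, did not pass the test. It had 327, 275 and 323 CPM in the libraries labelled sg-con and 296, 313 and 267 in those labelled sg-kiaa1522, and the groups overlapped. The log2 fold change was -0.08 (SE 0.0909), and its 95% interval of -0.29 to 0.13 corresponds to 0.817-fold to 1.10-fold the control level (adjusted p = 0.490 by edgeR).

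The heavy chain signal relative to B2m was compared within each library, per length of merged exons, as TPM (counts over exon length, scaled to a common total). The summed level of H2-K1 and H2-D1 over that of B2m, both in TPM, was 0.914, 1.17 and 0.977 in the libraries labelled sg-con. It was 0.787, 0.710 and 0.848 in those labelled sg-kiaa1522, below every control library. The exact two-sided permutation test gave p = 0.10, the smallest p that 3 against 3 libraries allow. The level of this ratio depends on the length used. With the mean transcript length it was 2.62 to 3.37 in the libraries labelled sg-con and 2.04 to 2.44 in those labelled sg-kiaa1522, again without overlap (p = 0.10 by the same exact test). By merged exons, the ratio of H2-D1 to H2-K1 overlapped between groups, at 2.11 to 2.30 and 2.06 to 2.25 (p = 0.30 by the same exact test).

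The peptide transporter and its partner were also lower. Tapbp (ENSMUSG00000024308, chr17:33915899-33929292), which bridges the transporter and the empty heavy chain, had 164, 181 and 177 CPM in the libraries labelled sg-con and 146, 129.8 and 134 in those labelled sg-kiaa1522. The groups did not overlap, and the log2 fold change was -0.35 (SE 0.0706, 95% interval -0.51 to -0.18, adjusted p = 0.00474 by edgeR). The antisense gene Gm19412 overlaps 24.9% of the Tapbp exon length, and the strand setting of the counting is not given in the sources used here. Gm19412 itself was at 3.79, 4.48 and 6.30 CPM and 2.06, 2.07 and 1.88 CPM, a small signal beside that of Tapbp that was also lower (log2 fold change -1.27, adjusted p = 0.00101 by edgeR over every gene with a count). Zbtb22, on the same strand, shares 4.11% of the Tapbp exon length and was lower as well (log2 fold change -0.40, adjusted p = 0.00336 by edgeR). The part of these overlaps in the Tapbp value was not tested.

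Tap1 (ENSMUSG00000037321, chr17:34187553-34197225), a TAP subunit, had 14.7, 12.9 and 13.1 CPM in the libraries labelled sg-con and 10.6, 6.93 and 10.4 in those labelled sg-kiaa1522. Replicate 2 of the latter was well below its fellows, and every library of the group was below every control. The fitted log2 fold change was -0.55 (SE 0.175, 95% interval -0.96 to -0.14, adjusted p = 0.0308 by edgeR). Without that replicate the log2 fold change was -0.37, with an adjusted p of 0.0601 by edgeR. Without sg-con replicate 1, 2 or 3 the adjusted p was 0.0672, 0.0576 and 0.0557.

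Tap2 (ENSMUSG00000024339, chr17:34203527-34216321), its partner subunit, had 42.1, 49.3 and 51.4 CPM in the libraries labelled sg-con and 41.9, 35.5 and 36.6 in those labelled sg-kiaa1522. The groups touched without overlapping, with sg-con replicate 1 only just above sg-kiaa1522 replicate 1. The log2 fold change was -0.33 (SE 0.108, 95% interval -0.58 to -0.07, adjusted p = 0.0368 by edgeR). Its adjusted p rose above 0.05 without sg-con replicate 2 (0.0955) or 3 (0.101), without sg-kiaa1522 replicate 2 (0.121) or 3 (0.111), and with a replicate block (0.0988). The calls of H2-K1, H2-D1 and Tapbp did not depend on any single library. The antisense genes that overlap Tap2, Gm15821 and Gm20496, had 0 counts in every library.

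**Figure D3:**
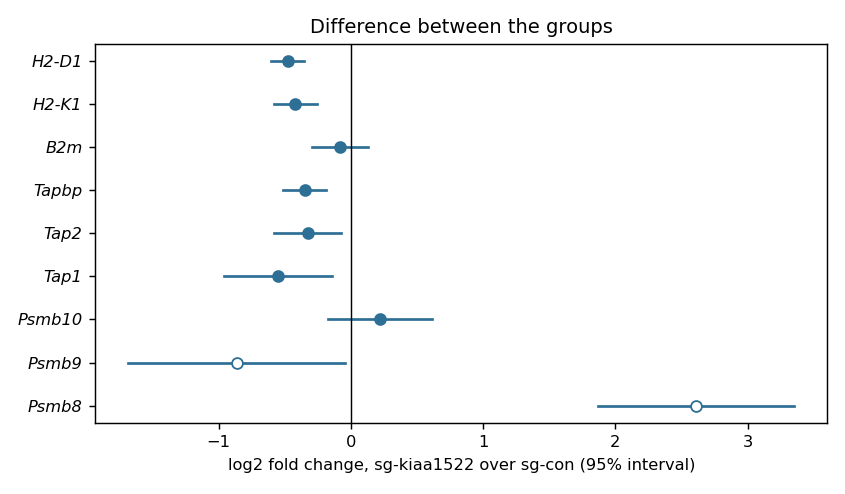
Log2 fold change of sg-kiaa1522 over sg-con with its 95% interval for 9 of the 10 genes; Nlrc5, at or near 0 counts, is not drawn. Filled points passed the filter of 500 counts and open points come from the test over every gene with at least 1 count. The intervals of H2-D1, H2-K1, Tapbp, Tap2 and Tap1 lie below 0, those of B2m and Psmb10 span 0, and that of Psmb8 lies far above 0.

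Of the immunoproteasome genes, only Psmb8 passed the test. Psmb8 (ENSMUSG00000024338, chr17:34197721-34201454), which replaces the catalytic subunit Psmb5, had 8, 6 and 5 counts in the libraries labelled sg-con and 31, 43 and 31 in those labelled sg-kiaa1522. In CPM these were 0.459, 0.324 and 0.300 and 2.55, 2.35 and 1.83. Every library labelled sg-kiaa1522 stood severalfold above every control, although all levels were low. The rise was 6.10-fold (95% interval 3.64 to 10.2), a log2 fold change of 2.61 (SE 0.342, adjusted p = 8.74e-05 by edgeR over every gene with a count). It held at an adjusted p of at most 0.000444 in each of the 11 alternatives in which it could be tested. The antisense gene Gm20496, which covers 14.7% of its exon length, had 0 counts in every library.

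Psmb9 (ENSMUSG00000096727, chr17:34181987-34187764), the counterpart of Psmb6, had similarly few counts and did not pass. It had 15, 30 and 19 counts in the libraries labelled sg-con and 10, 11 and 10 in those labelled sg-kiaa1522, or 0.861, 1.62 and 1.14 and 0.824, 0.600 and 0.589 CPM. The groups did not overlap in CPM but came close. The log2 fold change of -0.86 (SE 0.377, 95% interval -1.68 to -0.04) did not pass, with an adjusted p of 0.102 by edgeR over every gene with a count. Psmb9 and Tap1 are read away from each other from starts 226 bases apart in RefSeq, and their exons overlap by 212 bases on opposite strands in GENCODE M21, 5.79% of the Psmb9 and 3.87% of the Tap1 exon length. With the strand setting not known, reads of that stretch cannot be assigned to either gene with certainty.

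Psmb10 (ENSMUSG00000031897, chr8:105935735-105938444), the counterpart of Psmb7, had 4.82, 6.42 and 6.00 CPM in the libraries labelled sg-con and 5.85, 7.75 and 6.42 in those labelled sg-kiaa1522. The groups overlapped, and the log2 fold change of 0.22 (SE 0.170, 95% interval -0.17 to 0.62) did not pass (adjusted p = 0.303 by edgeR).

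Nlrc5 (ENSMUSG00000074151, chr8:94434356-94527272), the activator of class I genes, was close to absent from the counts. It had 4, 1 and 2 counts in the libraries labelled sg-con and 1, 0 and 3 in those labelled sg-kiaa1522. A library with 0 counts can hide a level of up to 3 counts, or 0.161 to 0.245 CPM here, and the Nlrc5 values lay at or near that limit in both groups. A difference in Nlrc5 was not detectable at this depth, and its fold change is not read here.

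The levels of the genes were ordered per length, in TPM with the merged exon length of each gene. In the libraries labelled sg-con, B2m was highest at 921 ± 99.2 TPM (SD, n = 3), followed by H2-D1 at 641 ± 13.5, H2-K1 at 289.9 ± 11.4 and Tapbp at 123 ± 3.52. Tap2 had 32.2 ± 2.65 TPM, Psmb10 8.63 ± 1.07, Tap1 6.36 ± 0.604, Psmb9 0.842 ± 0.254, Psmb8 0.275 ± 0.0720 and Nlrc5 0.0410. No neighbours in this order overlapped across the 3 libraries. With the mean transcript length in place of merged exons, H2-D1 came first at 956 TPM and B2m second at 481, and the other positions were the same. In the libraries labelled sg-kiaa1522 the order by merged exons differed in Psmb8, at 1.81 ± 0.283 TPM, which stood above Psmb9, at 0.501 ± 0.0972. Together the 10 genes took 0.194% to 0.208% of all TPM in the libraries labelled sg-con and 0.174% to 0.183% in those labelled sg-kiaa1522.

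The immunoproteasome subunits were set against the constitutive subunits that they replace, also per length of merged exons. The level of these shares depends on the length used, and shares by mean transcript length were not computed. Psmb8 made up 0.327%, 0.181% and 0.175% of Psmb8 plus Psmb5 in the libraries labelled sg-con and 2.47%, 2.71% and 2.04% in those labelled sg-kiaa1522. The share was thus low in both groups and higher in every library labelled sg-kiaa1522. Psmb5 itself was lower, from 43.4 ± 5.48 to 24.1 ± 2.33 CPM (log2 fold change -0.85, adjusted p = 0.000991 by edgeR), so that both terms of this share changed. Psmb9 made up 0.400% ± 0.0941 (SD, n = 3) of Psmb9 plus Psmb6 in the libraries labelled sg-con and 0.304% ± 0.0318 in those labelled sg-kiaa1522, with overlapping ranges. Psmb10 made up 10.3% ± 0.789 and 11.9% ± 1.52 of Psmb10 plus Psmb7, again with overlap.

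Around the catalytic core, 4 of 8 proteasome partner genes were lower and 2 higher at an adjusted p of at most 0.05. These are 50% and 25%, beside 26.3% of all genes tested in each direction. The regulator subunits Psme1 and Psme2, which form the interferon-inducible activator PA28, were both lower in the libraries labelled sg-kiaa1522. Psme1 went from 50.8, 52.9 and 61.0 to 29.0, 27.4 and 27.3 CPM (log2 fold change -0.98, adjusted p = 0.000189 by edgeR). Psme2 went from 18.4, 20.6 and 22.4 to 11.04, 7.47 and 9.90 CPM (log2 fold change -1.12, adjusted p = 0.000995 by edgeR), the only one of the 8 past a log2 fold change of 1. Psme3 and Psme4, which form other proteasome activators, were higher, with log2 fold changes of 0.60 and 0.75 (adjusted p = 0.000245 and 0.000884 by edgeR). Psmb6 was lower as well (-0.44), and Psmb7 (-0.02) and the assembly factor Pomp (-0.07) did not pass.

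**Figure D4:**
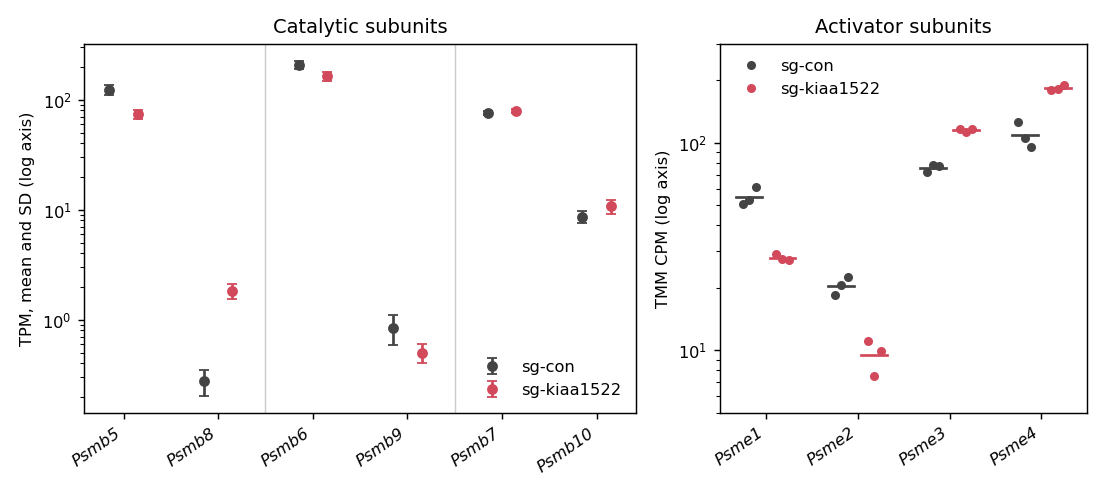
Proteasome subunits in both groups. Left, mean TPM with SD (n = 3) on a log axis for each constitutive catalytic subunit and the immunoproteasome subunit that replaces it. Right, CPM on a log axis of activator subunits in each library, with group means as bars; Psme1 and Psme2 lie lower and Psme3 and Psme4 higher in the libraries labelled sg-kiaa1522.

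Class I molecules outside the 10 genes were mostly scarce. Of 26 such genes listed, 23 were found in the tables and 4 passed the count filter. Of these, 2 were lower (50%), beside 26.3% of all genes tested, and the other 2 did not pass. H2-T23, which encodes the NK cell receptor ligand Qa-1, had 54.4, 68.6 and 58.2 CPM in the libraries labelled sg-con and 26.2, 27.1 and 26.7 in those labelled sg-kiaa1522 (log2 fold change -1.18, 95% interval -1.42 to -0.94, adjusted p = 0.000131 by edgeR). H2-T22, a ligand of gamma delta T cells, had 114, 120.3 and 116 and 65.0, 69.1 and 66.4 CPM (log2 fold change -0.80, adjusted p = 8.67e-05 by edgeR). Neither gene's groups overlapped, as was so for 31.1% of all genes tested in this direction. H2-M3, which presents formylated peptides, had a log2 fold change of -0.12 (adjusted p = 0.405 by edgeR), and the neonatal Fc receptor Fcgrt kept within -0.25 to 0.25 (95% interval).

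Of the 19 found under the count filter, 7 had 0 counts in every library. Of the other 12, 4 were lower (Mr1, Hfe, H2-T24 and H2-M2) and 8 did not pass, beside 16.8% of all genes with a count lower; these names were chosen after their values were seen. H2-K2 had the same summed count as Mr1, 374, and did not pass, with overlapping groups (log2 fold change -0.15, adjusted p = 0.595 by edgeR over every gene with a count). The antigen-presenting molecule Mr1 had 6.43, 5.39 and 5.88 CPM in the libraries labelled sg-con and 1.73, 1.31 and 1.12 in those labelled sg-kiaa1522, and the iron regulator Hfe had 5.91, 6.64 and 6.48 and 1.40, 1.42 and 1.35. The groups of Mr1, Hfe and H2-T24 did not overlap, with log2 fold changes of -2.10, -2.18 and -1.85 for Mr1, Hfe and H2-T24 (adjusted p = 1.29e-05, 3.95e-06 and 0.000699 by edgeR over every gene with a count). Whether these fell further than H2-K1 and H2-D1 was not tested.

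For loading and trimming partners the shares called lay near or under those of all genes. Of 14 genes listed, 13 were tested, of which 4 were higher (30.8%) and 2 lower (15.4%), beside 26.3% of all genes tested in each direction, with a median log2 fold change of 0.05 against -0.0067 over all genes. Calr, the chaperone of the loading complex, rose from 519, 552 and 565 to 876, 837 and 798 CPM (log2 fold change 0.62, adjusted p = 0.000218 by edgeR). Its membrane-bound relative Canx (0.30) and the trimming peptidase Erap1 (0.53) were also higher, as was the insulin-degrading enzyme Ide, with the largest log2 fold change among the higher genes (0.70, adjusted p = 0.000148 by edgeR). Thop1, a cytosolic peptidase that destroys class I peptides, was lower (-0.76, adjusted p = 0.00145 by edgeR), and so was the export receptor Bcap31 (-0.50). Pdia3, the thiol oxidoreductase bound to tapasin, did not pass (-0.05, 95% interval -0.19 to 0.09).

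Of 31 transcription factors and interferon signalling genes that act upstream of class I genes, 28 were tested, of which 5 were lower and 5 higher. That is 17.9% in each direction, beside the 26.3% of all genes tested. The lower genes included both chains of the interferon gamma receptor, Ifngr1 at -0.70 and Ifngr2 at -0.62 on the log2 scale (adjusted p = 0.00244 and 0.000189 by edgeR), and also Ifnar2 (-0.36) and Irf3 (-0.28). The NF-κB subunit Rela (0.52), Jak2 (0.41), the Polycomb subunit Eed (0.36), Irf2 (0.32) and Creb1 (0.23) were higher. Irf1, a direct activator of class I and immunoproteasome genes, had 25.4, 23.4 and 22.9 and 21.8, 24.5 and 27.4 CPM, with overlapping groups and a 95% interval of -0.21 to 0.30 on the log2 scale.

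Ligands of T cell and NK cell receptors act beside class I molecules when lymphocytes meet a cell. Of 13 listed, 7 passed the count filter, of which 5 were lower (71.4%) and 2 higher (28.6%), beside 26.3% of all genes tested in each direction. Raet1e and Raet1d, which encode ligands of the activating receptor NKG2D, were lower, with 30.0, 31.3 and 31.0 CPM against 10.2, 9.001 and 7.60 for Raet1e (log2 fold change -1.79, adjusted p = 5.68e-05 by edgeR) and a log2 fold change of -1.80 for Raet1d (adjusted p = 0.000111 by edgeR). The Raet1 genes are close copies of each other, so their separate counts are uncertain, though the sequence they share was not measured here. H60b, of the same receptor, was lower as well (-1.21, adjusted p = 0.000231 by edgeR). Pvr, the ligand of DNAM-1 and TIGIT, was higher, from 88.1, 82.6 and 79.6 to 261, 279 and 278 CPM (log2 fold change 1.71, adjusted p = 8.43e-06 by edgeR), whereas its relative Nectin2 was lower (-0.72). The phagocytosis inhibitor Cd47 was lower (-0.44) and the checkpoint ligand Cd276 higher (0.33). Of the 6 ligands under the count filter, 1 was lower, 1 higher and 4 did not pass, beside 16.8% and 16.7% of all genes with a count; both names were chosen after their values were seen. Ulbp1, another NKG2D ligand, was lower, at 3.56, 2.21 and 2.34 and 1.65, 1.04 and 1.83 CPM (log2 fold change -0.85, adjusted p = 0.0399 by edgeR over every gene with a count). The checkpoint ligand Cd274 (PD-L1) was higher and had 3.44, 3.45 and 2.64 CPM and 6.01, 5.56 and 5.83 CPM (log2 fold change 0.87, adjusted p = 0.00224 by edgeR over every gene with a count).

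**Figure D5:**
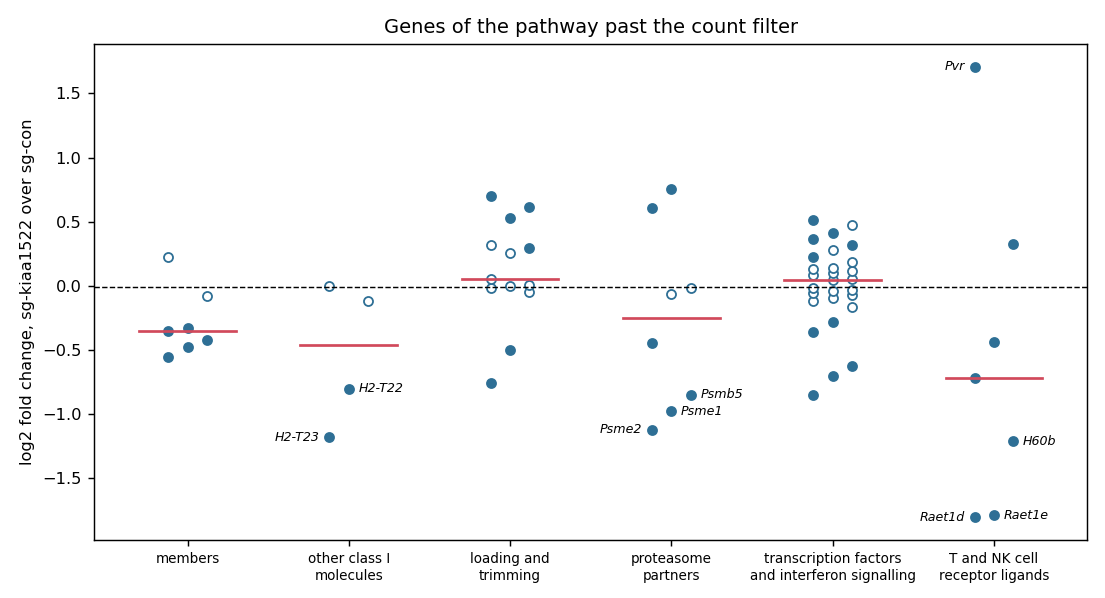
Log2 fold change of sg-kiaa1522 over sg-con for the genes of each list that passed the count filter. Filled points have an adjusted p of at most 0.05, red lines are list medians and the dashed line is the median of all genes tested (-0.0067). The members are the 7 tested of the 10 class I genes, with 5 filled points between -0.55 and -0.33; of the other lists, those of loading, proteasome partners, regulators and ligands hold filled points on both sides of 0.

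Values that moved with the groups stand beside these results. MHC class II genes summed to 24.5 to 32.5 CPM in the libraries labelled sg-con and 19.2 to 22.3 in those labelled sg-kiaa1522. Their activator Ciita was at or below 1 count in every library, and the only class II gene tested, H2-DMb1, was lower (-0.64, adjusted p = 0.00506 by edgeR). Endothelial and fibroblast markers summed to 468 to 487 and 168 to 199 CPM, mostly from the collagen gene Col1a2 (-1.46), and the pericyte marker Pdgfrb was also lower (-0.72). Epithelial and lung markers summed to 3909 to 4620 and 3280 to 3523 CPM, and 5 of the 6 tested were lower (83.3%, beside 26.3% of all genes), among them Cdh1 (-1.45), Krt19 (-0.73) and Sftpb (-0.67). In bulk RNA, fewer cells of a type and less RNA per cell cannot be told apart, and the part of these shifts in the class I values was not tested.

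Of the 10 genes, 7 lie on chromosome 17. The other 536 genes tested on that chromosome had a median log2 fold change of -0.11, with 33.2% lower and 21.1% higher. Between the first and the last of the 7, the other 42 genes tested had a median of -0.10, with 26.2% lower and 16.7% higher. Among these 7 genes, the 5 that were tested had a median of -0.42. B2m lies on chromosome 2, where 15.3% of the other genes were lower and 33.8% higher.

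Across the 6 libraries, the genes whose log2 CPM most resembled the mean profile of the 7 tested genes were Fzd2, Phlda3, Haus7, Gm15706 and Mvp, with Pearson r of 0.999 each. All 5 were lower in the libraries labelled sg-kiaa1522, with log2 fold changes from -1.40 for Gm15706 to -0.41 for Mvp. The likeness describes 6 libraries in 2 groups and is common in these data, since 1872 of 10039 genes (18.6%) had r above 0.9. The profile contains each of the 7 genes, so their own r restates their fold changes and is no test. It was 0.996 for H2-K1, 0.993 for Tapbp, 0.973 for H2-D1, 0.946 for Tap2 and 0.831 for Tap1, but 0.249 for B2m and -0.500 for Psmb10.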

How the data were processed

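RNA was measured by sequencing in 6 libraries, 3 labelled sg-con and 3 labelled sg-kiaa1522. The deposited values are raw counts of uniquely mapped fragments per gene, made by the authors after trimming and removal of ribosomal reads, alignment to GRCm38 with HISAT2 2.0.4 and counting with StringTie 1.3.0 (versions from the submitters' processing notes). The annotation release and strand setting are not given in the sources used here. Library totals were 12220001 to 18609376 counts.

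The 10046 of 34745 genes whose summed count exceeded 500 were tested with edgeR 4.0.16 in R 4.3.3, by the quasi-likelihood test with TMM scaling and Benjamini-Hochberg adjustment over all of them, called at an adjusted p of at most 0.05. CPM are TMM-scaled. TPM use merged exon lengths of GENCODE M21, to which 34344 genes were matched by identifier. Intervals are 95% and cover the spread between libraries. The scripts were tested on simulated data. Alternatives were DESeq2 1.42.0, other scalings and filters, a replicate block, and each library left out.

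The 10 genes and all lists were chosen with earlier results of these data known. Named were the 10 genes, their exon neighbours, the targeted gene, the 5 most alike genes and, from each list, genes past a log2 fold change of 1 and the 3 with the largest change; other names were added after their values were seen. H2-Q8, H2-Q9 and H2-T9 were not matched. A gene of the list of regulators is not reported by name here.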

Additional observations from a re-analysis of the deposited data

How the results depend on the processing

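H2-K1, H2-D1 and Tapbp stayed lower with an adjusted p of at most 0.0285 in all 12 alternatives, and B2m and Psmb10 passed in none that tested them. Tap1 lost its call in 4 of 12 and Tap2 in 5 of 12. Leaving out each library in turn gave 3 to 5 lower genes among the members tested, with 3 without sg-con replicate 2, sg-con replicate 3 or sg-kiaa1522 replicate 2; over all genes tested, 20.8% to 29.4% were then lower. Psmb9 passed only without sg-con replicate 1 (log2 fold change -1.06, adjusted p = 0.0486 by edgeR), and its adjusted p ranged up to 0.396. With filterByExpr 1 of 9 members was higher, and with every gene with at least 1 count 1 of 10, in both cases Psmb8. Beside these, 25.5% and 16.7% of all genes tested were higher. Over all genes, those past a log2 fold change of 1 then rose to 812 and 941 lower and to 607 and 767 higher, since more genes were tested. The log2 fold change of Nlrc5, which rests on 0 to 4 counts a library and is no measure of its change, ranged from -1.78 to 0.024 with a library left out, and it reversed to 0.024 without sg-kiaa1522 replicate 2. Psmb10 fell under 500 counts without that library. With a replicate block, 4 members were lower, Tap2 having an adjusted p of 0.0988, and 2111 genes were lower and 2109 higher over all; same-numbered libraries did not deviate together (correlations -0.214, -0.0508 and -0.165), so the numbers pair no samples. The median log2 fold change of all genes was -0.0067 and, with library size alone, -0.021. At 3 counts, the depth limits values below 0.161 to 0.245 CPM.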
